A study of Homo sapiens with 6 samples.

Results

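The type I interferon response genes are a set of 41 human genes named by symbol, whose products sense viral RNA, carry the interferon signal to the nucleus or block viral replication. All 41 were found in the table of 34114 genes. All 41 had a mean of at least 10 normalized counts over the 6 libraries and so belonged to the 19575 genes tested. The lowest mean was that of IFI27, 21.7 normalized counts, followed by IFI44L with 44.5, so no gene of the list lay just outside the limit.

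The libraries came from 3 established acute myeloid leukemia cell lines, MOLM-14, NOMO-1 and SKM-1, harvested 72 h after introduction of an shRNA. An shRNA is a short hairpin RNA that directs breakdown of a matching messenger RNA. In the knockdown group the hairpin was directed against NCAM1, the neural cell adhesion molecule also called CD56. The control group received a scrambled hairpin, so both groups carried an shRNA, and cells without one were not analysed here. Each line gave 1 knockdown and 1 control library, so that n = 3 lines per group. MOLM-14 and NOMO-1 are known to carry the fusion of KMT2A with MLLT3, and each line is descended from 1 patient. The labels give neither the promoter nor the vector of the hairpins. The column headers name the hairpin sh59 for MOLM-14 and NOMO-1 and sh59a for SKM-1, and the labels do not say whether these are the same, so a difference of SKM-1 cannot be told apart from one of the hairpin. Replication within a line was absent, and the p-values below measure the spread of the response between lines.

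Type I interferons are secreted proteins, IFN-beta and the many IFN-alpha forms, that bind the receptor made of IFNAR1 and IFNAR2. The receptor-bound kinases JAK1 and TYK2 then activate STAT2, which joins IRF9 in the complex ISGF3. ISGF3 binds a short DNA element in the promoters of its targets, the interferon-stimulated response element, whose core is a pair of GAAA repeats set apart by a short spacer. In leukemia cell lines many of these genes keep a basal level without added interferon.

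The element was looked for on both strands as GAAA, any 2 bases and GAAA again, in the window from 250 bases before to 50 bases after each annotated start, in the RefSeq promoters of build GRCh38.p14. Of the 32 members with a promoter entry, 22 (68.8%) held it, against 4.38% of 27305 genes with an entry. The longer form that goes on with CT, which overlaps the first, was in 15 of the 32 (46.9%), against 0.322% of the genes. IFIT2, MX2, OAS2, OASL, IRF7, DHX58, USP18, IFITM2 and TRIM22 had no entry. A gene with several annotated starts counted once if any of its windows held a match, and a match describes the letters only. The windows of 50 bases that follow lie upstream of the start and belong to the members on which the results below turn, and capitals mark the bases of each match, read on the gene's strand. The first 5 come from genes that were higher with knockdown in all 3 lines, and the last 3 from genes whose ratios pointed in opposite directions in MOLM-14 and SKM-1. The window of RSAD2 lies at chr2:6877612-6877661 (plus strand), IFI44 at chr1:78649739-78649788 (plus), PARP9 at chr3:122564312-122564361 (minus), BST2 at chr19:17405725-17405774 (minus) and IFIT5 at chr10:89414518-89414567 (plus). That of OAS3 lies at chr12:112938424-112938473 (plus), IFI6 at chr1:27672256-27672305 (minus) and HERC5 at chr4:88456980-88457029 (plus).
RSAD2: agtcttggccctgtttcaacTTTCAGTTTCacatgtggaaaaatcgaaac
IFI44: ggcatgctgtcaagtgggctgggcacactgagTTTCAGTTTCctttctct
PARP9: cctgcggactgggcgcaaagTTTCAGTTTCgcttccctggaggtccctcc
BST2: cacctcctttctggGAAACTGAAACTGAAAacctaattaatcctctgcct
IFIT5: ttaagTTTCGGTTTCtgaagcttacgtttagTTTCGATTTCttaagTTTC
OAS3: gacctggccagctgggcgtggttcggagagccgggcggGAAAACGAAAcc
IFI6: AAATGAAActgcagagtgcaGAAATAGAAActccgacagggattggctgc
HERC5: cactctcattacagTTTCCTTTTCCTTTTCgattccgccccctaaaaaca

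The last match of IFIT5 and the first of IFI6 are cut by the window's edge. The element stood on either strand, and BST2 and HERC5 carried overlapping matches.

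The 6 libraries held between 41916991 and 47688779 reads assigned to genes. NCAM1 itself had 1896 normalized counts in the knockdown library of MOLM-14, against 6004 in its control library. In NOMO-1 it had 312, against 1163, and in SKM-1 101, against 12537. The knockdown libraries were thus lower by 3.17-fold for MOLM-14, 3.73-fold for NOMO-1 and 124-fold for SKM-1. SKM-1 stood apart in the breadth of its response, since 15.7% of all genes tested were at least 2-fold higher and 16.5% at least 2-fold lower in its knockdown library. MPO, the granule enzyme myeloperoxidase, had 6166 normalized counts in SKM-1 with knockdown, against 728824 in the control. ITGAM, the integrin CD11b, had 20862 in SKM-1 with knockdown, against 1757. CD33, which marks myeloid leukemia cells, was between 1764 and 3837 in all 6 libraries. The 12 markers of myeloid identity summed to between 17337 and 50019 in knockdown libraries and between 20017 and 747720 in control libraries. In each line their sum was lower with knockdown. The sum of 747720 was that of the SKM-1 control and was nearly all MPO, so it does not describe the other markers. Of plasmacytoid dendritic cells, the main interferon producers of blood, 4 of 6 markers were in the table, with sums of 631 to 1162 in knockdown and 591 to 1794 in control libraries. Nearly all of that sum was TCF4, while their defining CLEC4C had at most 4.46 normalized counts and was 0 in both NOMO-1 and both SKM-1 libraries. The part of these shifts in the interferon results was not tested, and in bulk RNA fewer cells of a type and less RNA per cell cannot be told apart.

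With NCAM1 knockdown, the interferon genes were higher as a group in MOLM-14, nearer to the share of all genes in NOMO-1, and in SKM-1 about evenly higher and lower, with more members at least 2-fold lower than at least 2-fold higher. In MOLM-14, 38 of 41 were higher in the knockdown library, where 48.4% of all genes tested were. Their median log2 ratio was 0.54, against 0.00 over all genes. In NOMO-1, 25 of 41 were higher, where 49.0% of all genes were, with a median log2 ratio of 0.15. In SKM-1, 22 were higher and 19 lower, where 48.0% of all genes were higher, with a median of 0.10. The spread was widest in SKM-1, where the log2 ratios ran between -3.31 for XAF1 and 4.17 for IFIT5, while they ran between -0.45 and 2.62 in MOLM-14 and between -0.98 and 1.41 in NOMO-1.

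**Figure D1:**
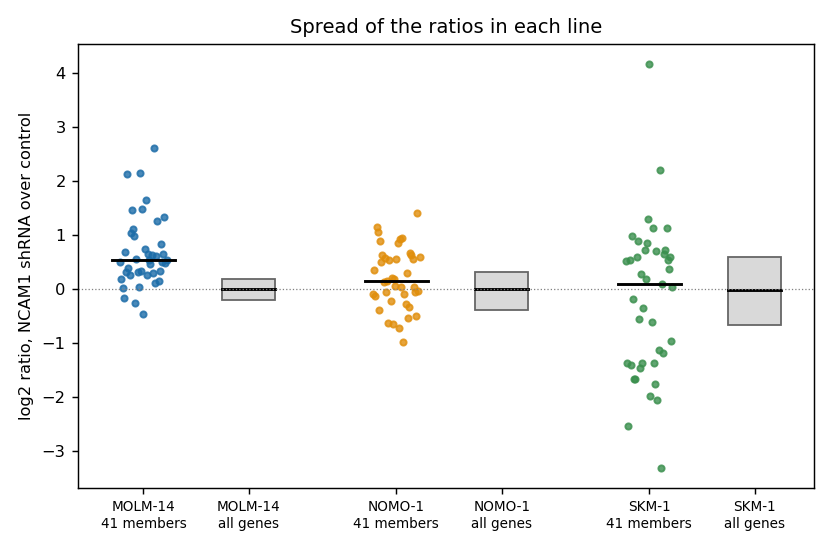
Log2 ratio of knockdown over control (normalized count + 1, y axis) in each cell line; points are the 41 interferon genes, black bars their medians, and grey boxes the quartiles and median of all 19575 genes tested. The MOLM-14 points lie mostly above 0 with a median of 0.54, and the SKM-1 points spread between -3.31 and 4.17.

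In MOLM-14, 10 members were at least 2-fold higher, against 3.56% of all genes, and 0 were at least 2-fold lower, against 4.03%. NOMO-1 had 3 members at least 2-fold higher (IFIT1, IFI44 and TRIM22), against 4.06% of all genes, and 0 lower, against 7.42%. SKM-1 had 5 members at least 2-fold higher, against 15.7%, and 14 at least 2-fold lower, against 16.5%. Among members with at least 100 normalized counts in a library of the line, the 2-fold limit upward was passed by 10 of 37 in MOLM-14 (0.777% of all such genes), 1 of 28 in NOMO-1 (2.08%) and 3 of 32 in SKM-1 (14.0%). Downward SKM-1 had 9 such members (14.9%), and there were 0 in both MOLM-14 (1.43%) and NOMO-1 (5.67%). These are ratios of single libraries, whose intervals below cover counting error alone.

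Higher in all 3 lines were 13 of 41 members (31.7%), where 14.6% of all genes were. They were IFIT3, IFIT5, ISG20, MX1, IFI35, IFI44, IFI44L, RSAD2, IFIH1, SAMD9, PARP9, IFITM1 and BST2, though for IFI44L the NOMO-1 difference is 1 read, against 0. IFI27 alone was lower in all 3 lines, where 15.9% of all genes were. A further 11 (26.8%) were higher in MOLM-14 and NOMO-1 and lower in SKM-1, where 13.7% of all genes were. They were IFIT1, ISG15, MX2, OAS1, OAS3, OASL, IFI6, USP18, HERC5, HERC6 and CMPK2. Lower in NOMO-1 and higher in both other lines were 8 (19.5%), where 8.60% of all genes were, namely STAT2, IRF1, DDX58, DHX58, SAMD9L, DDX60, PARP14 and IFITM2. IFIT2, OAS2, IRF9, XAF1, EPSTI1 and IFITM3 (14.6%) were higher in MOLM-14 and lower in both other lines, near the 10.7% of all genes that were. TRIM22 was higher in NOMO-1 alone (9.12% of all genes) and IRF7 in SKM-1 alone (13.4% of all genes). Scaling by total counts turned the small NOMO-1 differences of DDX58 and EPSTI1 to higher and no other sign. Among the 13 genes higher in all lines, all of which had a promoter entry, 12 held the element, the exception being IFI35. Of the 8 genes with an entry that were lower in SKM-1 alone, 5 held it. It was in 2 of 6 that were lower in NOMO-1 alone, 2 of 4 that were higher in MOLM-14 alone, and IFI27.

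**Figure D2:**
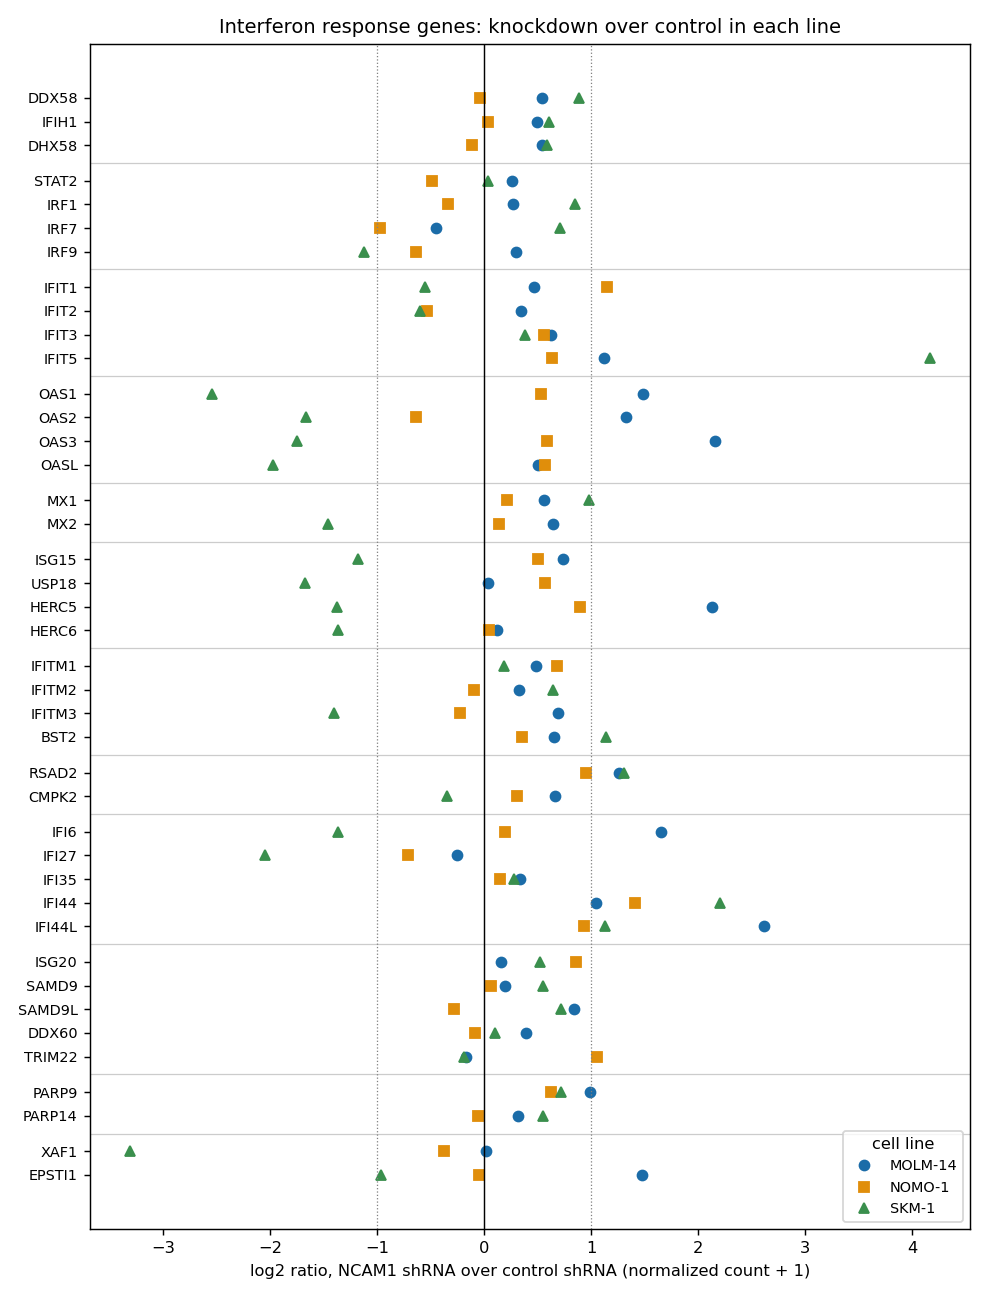
Log2 ratio of knockdown over control (normalized count + 1, x axis) for each of the 41 genes, grouped by role, with circles for MOLM-14, squares for NOMO-1 and triangles for SKM-1; dotted lines mark 2-fold. The oligoadenylate synthetases and the ISG15 group lie to the left of 0 in SKM-1, and RSAD2, IFI44, PARP9 and BST2 lie to the right in every line.

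Across the lines, no member was called in the limma fit with cell line as a block, at a Benjamini-Hochberg adjusted p under 0.05, and 0.00% of all genes were. At an unadjusted p under 0.05, 5 members were higher, IFI44, IFI44L, RSAD2, PARP9 and BST2, where 1.59% of all genes tested were higher. None of the members was lower at that limit, where 2.89% of all genes were. Leaving out both MOLM-14 libraries gave 1 such member, where 1.997% of all genes were higher, leaving out those of NOMO-1 gave 2, where 0.562% were, and leaving out those of SKM-1 gave 11, where 2.30% were. A fit with no block for cell line gave 0, where 0.194% were. A filter on a mean of 50 gave 4, where 1.43% were, and left out IFI44L. Among the 5, IFI44L reached the mean of 10 only through the MOLM-14 knockdown library, in which it was high, 217 normalized counts. On the whole reads recovered from the table, edgeR called 0 genes. At an unadjusted p under 0.05 in edgeR, 5 members were higher, where 1.71% of all genes were. DESeq2 called 0.220% of all genes and among the members only RSAD2. Taken as the mean over lines, 28 members were higher and 13 lower, with a median log2 change of 0.26.

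RSAD2 encodes viperin, an enzyme of the endoplasmic reticulum that makes a chain-terminating nucleotide. In MOLM-14 it had 1357 normalized counts with knockdown, against 567, and in NOMO-1 473, against 245. SKM-1 had the lowest level, 159.8 with knockdown, against 64.0. Each line was thus higher by a similar factor, 2.396-fold in MOLM-14 (95% interval 2.16 to 2.66), 1.94-fold in NOMO-1 (1.66 to 2.26) and 2.50-fold in SKM-1 (1.86 to 3.38). RSAD2 differed by a mean log2 of 1.17 ± 0.19 (SD, n = 3 lines; limma SE 0.23, adjusted p = 0.779), while DESeq2 gave an adjusted p of 0.0281. CMPK2, the neighbouring gene, encodes a nucleotide kinase and had 942, 933 and 509.6 normalized counts with knockdown, against 597, 755 and 648 in the controls. It was higher with RSAD2 in MOLM-14 and NOMO-1 and lower in SKM-1.

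IFI44 and IFI44L are adjacent genes on chromosome 1 encoding related proteins that interferon induces. IFI44 had 351, 29.2 and 55.1 normalized counts with knockdown in MOLM-14, NOMO-1 and SKM-1, against 169.5, 10.4 and 11.2 in the controls. The ratios were 2.07-fold (1.70 to 2.52), 2.81-fold (1.38 to 6.18) and 4.93-fold (2.57 to 10.4), and its mean change on the log2 scale was 1.55 ± 0.59 (SD, n = 3; limma SE 0.38, adjusted p = 0.779). IFI44L had 217 normalized counts in MOLM-14 with knockdown, against 34.6, a 6.28-fold difference (4.29 to 9.48) and the greatest of any member in that line. In NOMO-1 it had 0.912 with knockdown, against 0, too few for a ratio, and in SKM-1 10.1, against 4.06. The mean log2 change of IFI44L was 1.56 ± 0.92 (SD, n = 3; limma SE 0.53, adjusted p = 0.779). It includes a NOMO-1 value of 0.94 that the pseudocount of 1 sets. Without MOLM-14 the mean was 1.03, which rests on that value and on SKM-1. The SKM-1 ratio, 2.48-fold (0.736 to 10.7), is within counting error.

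PARP9 forms a complex with the ubiquitin ligase DTX3L that modifies histones. It had 840.4, 1217 and 1083 normalized counts with knockdown in MOLM-14, NOMO-1 and SKM-1, against 423, 787 and 658 in the controls. All 3 knockdown libraries were above all 3 controls, with a mean log2 change of 0.78 ± 0.19 (SD, n = 3; limma SE 0.20, adjusted p = 0.779). The annotation places 217 exonic bases of PARP9 opposite DTX3L, and no source used here gives the strand setting of the counting. BST2, or tetherin, holds budding virus at the cell surface, and had 2193, 4623 and 3067 normalized counts with knockdown, against 1392, 3608 and 1391. Its mean log2 change was 0.72 ± 0.40 (SD, n = 3; limma SE 0.22, adjusted p = 0.779), with the ratio of SKM-1, 2.21-fold (2.07 to 2.35), above the 1.58-fold of MOLM-14 and the 1.28-fold of NOMO-1. The groups overlapped for BST2 because the NOMO-1 control was above the knockdown libraries of both other lines.

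**Figure D3:**
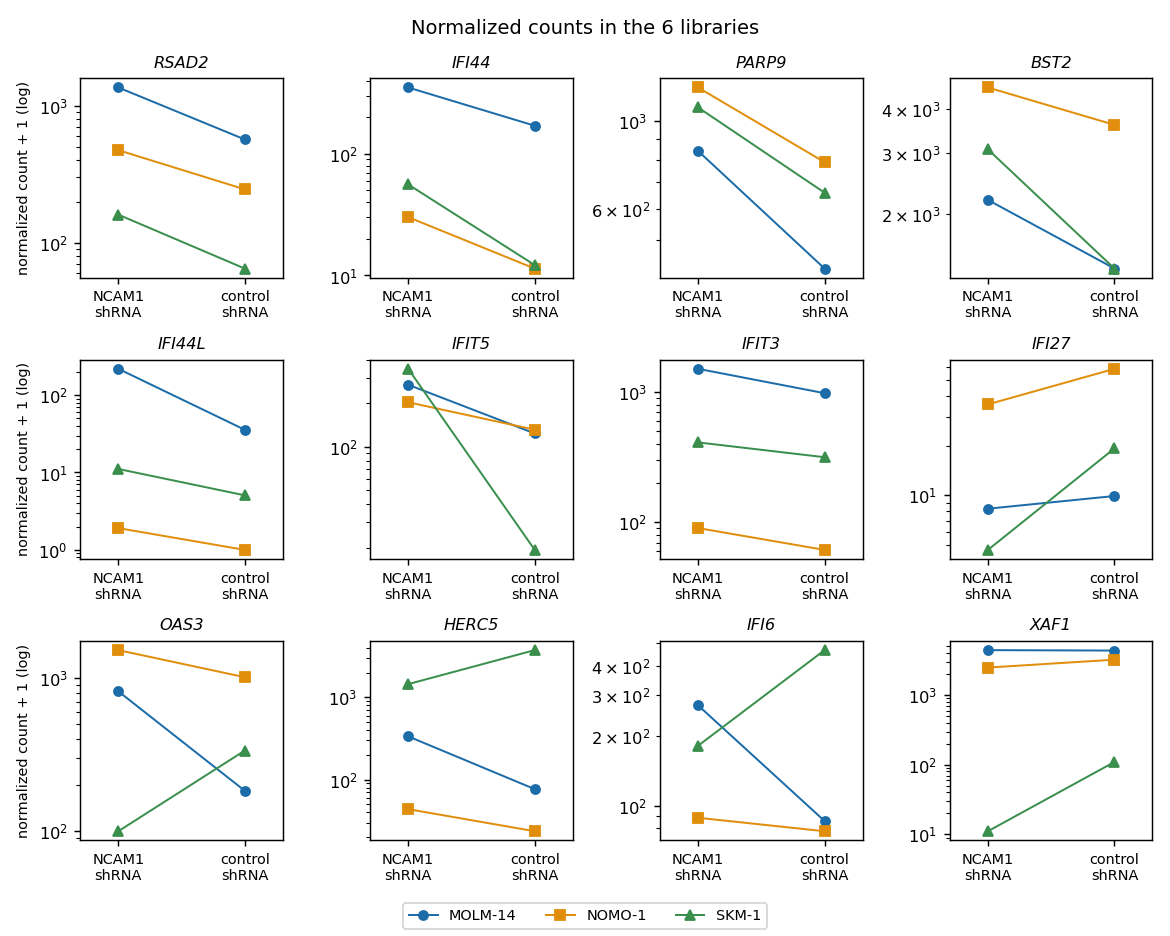
Normalized counts + 1 (log y axis) of 12 interferon genes in the 6 libraries, with NCAM1 shRNA left and control shRNA right and a line joining the libraries of each cell line. RSAD2, IFI44, PARP9, BST2, IFI44L, IFIT5 and IFIT3 were higher with knockdown in each line, IFI27 was lower in each, and OAS3, HERC5 and IFI6 were higher in MOLM-14 and lower in SKM-1.

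The IFIT proteins act on foreign RNA and hold back its translation. IFIT5 had 268, 203 and 346 normalized counts with knockdown in MOLM-14, NOMO-1 and SKM-1, against 123, 130.3 and 18.3 in the controls. In SKM-1 this was an 18.9-fold difference (11.8 to 32.3), the highest of any member in any line, and in the other lines 2.19-fold (1.74 to 2.76) and 1.55-fold (1.251 to 1.94). On the log2 scale IFIT5 differed by a mean of 1.97 ± 1.92 (SD, n = 3; limma SE 0.76, adjusted p = 0.779), and the mean was 0.88 without SKM-1. IFIT3 had 1505, 89.4 and 409 with knockdown, against 978, 60.5 and 315, with a mean log2 change of 0.52 ± 0.13 (SD, n = 3; limma SE 0.23, adjusted p = 0.779). IFIT1 had 918, 20.1 and 37.6, against 664, 8.50 and 55.9. IFIT2 had 2673, 40.1 and 163, against 2109, 58.6 and 249. The differences of IFIT1 in SKM-1 (0.674-fold, 0.438 to 1.03) and of IFIT2 in NOMO-1 (0.685-fold, 0.455 to 1.03) are within counting error, while IFIT2 was 1.52-fold lower in SKM-1 (1.251 to 1.86).

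The oligoadenylate synthetases OAS1, OAS2 and OAS3 make the messenger that activates RNase L in answer to double-stranded RNA, and OASL is a related protein without that activity. All 4 were higher in MOLM-14 and all 4 lower in SKM-1. OAS3 had 821 normalized counts with knockdown, against 183, in MOLM-14, a 4.49-fold difference (3.79 to 5.34). In NOMO-1 OAS3 had 1525, against 1014, and in SKM-1 99.2, against 336, or 3.39-fold lower (2.72 to 4.25). OAS1 was 2.81-fold higher in MOLM-14 (2.37 to 3.35), with 565 counts, against 201. OAS2 was 2.52-fold higher there (2.23 to 2.85), with 1019, against 405. In SKM-1 both sat near the limit of detection, OAS1 with 0.918, against 10.2, and OAS2 with 0.918, against 5.08, which are 1 read each with knockdown. OASL had 328, 85.8 and 1.84 with knockdown in MOLM-14, NOMO-1 and SKM-1, against 231, 57.6 and 10.2.

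ISG15 is a ubiquitin-like protein, HERC5 the ligase that attaches it, USP18 the protease that removes it and also damps the receptor, and HERC6 a relative of HERC5. All 4 were higher in MOLM-14 and NOMO-1 and lower in SKM-1. HERC5 had 335 normalized counts with knockdown, against 75.8, in MOLM-14, or 4.42-fold higher (3.39 to 5.83), and 42.9, against 22.7, in NOMO-1. In SKM-1, where it was most abundant, HERC5 had 1447 with knockdown, against 3746, or 2.59-fold lower (2.44 to 2.75). ISG15 had 608, 267 and 229.5 with knockdown in MOLM-14, NOMO-1 and SKM-1, against 364, 188.0 and 520.2, and was 2.27-fold lower in SKM-1 (1.94 to 2.65). USP18 was 3.20-fold lower in SKM-1 (2.70 to 3.81), with 167, against 534, and 1.03-fold in MOLM-14 (0.832 to 1.27), within counting error of no difference. HERC6 was 2.59-fold lower in SKM-1 (2.18 to 3.08), with 179, against 463, and between 1.03-fold and 1.09-fold in NOMO-1 and MOLM-14.

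IFI6, a small membrane protein that limits cell death, had 269 normalized counts with knockdown in MOLM-14, against 84.8, or 3.18-fold higher (2.45 to 4.16). In SKM-1 it had 180.0, against 466, or 2.59-fold lower (2.19 to 3.08), and in NOMO-1 87.6, against 76.5. MX1 and MX2 are dynamin-like GTPases that trap viral nucleocapsids and lie side by side on chromosome 21. MX1 was 1.98-fold higher in SKM-1 (1.68 to 2.33), with 436, against 220.5, while MX2 was 2.76-fold lower (2.46 to 3.09), with 395, against 1088. In MOLM-14 and NOMO-1 both were higher, MX2 by 1.56-fold (1.33 to 1.85) in MOLM-14 and within counting error in NOMO-1. MX1 has exons that overlap an antisense gene, as noted for PARP9. IFI27, which lies in the mitochondrial membrane, had 7.31, 34.7 and 3.67 with knockdown in MOLM-14, NOMO-1 and SKM-1, against 8.92, 57.6 and 18.3. The mean log2 change of IFI27 was -1.01 ± 0.93 (SD, n = 3; limma SE 0.51, adjusted p = 0.779), and -0.49 without SKM-1. Its MOLM-14 difference is within counting error, with a ratio of 0.819 (0.253 to 2.58). IFI35 differed little, by log2 ratios of 0.33, 0.15 and 0.28 in MOLM-14, NOMO-1 and SKM-1.

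The RNA sensors DDX58 (RIG-I), IFIH1 (MDA5) and DHX58 (LGP2) were higher in MOLM-14 and SKM-1 and close to the control in NOMO-1. DDX58 had 1499, 1082 and 1115 normalized counts with knockdown in MOLM-14, NOMO-1 and SKM-1, against 1032, 1109 and 604. IFIH1 had 1150.4, 622 and 1508, against 815, 608 and 994. DHX58 had 200.4, 261 and 309, against 137, 283 and 205. Among the transcription factors, STAT2, IRF1, IRF7 and IRF9 were all lower in NOMO-1, with a median log2 ratio of -0.56. STAT2 had 6202, 2373 and 1906 with knockdown, against 5177, 3334 and 1860.4. IRF9, which gives ISGF3 its DNA contact, had 212, 83.0 and 31.2, against 173, 129 and 69.1. The annotation places 1838 of the 1965 exonic bases of IRF9 in exons of AL136295.5 on the same strand. No source used here says how shared reads were counted, so the values of IRF9 are uncertain. IRF7, the factor that amplifies IFN-alpha production, had 764, 307 and 337, against 1045, 604 and 205, and was the only member lower in MOLM-14 by more than counting error apart from TRIM22. IRF1, which also answers interferon gamma, had 1779.9, 1083 and 1778, against 1475, 1369 and 986.

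IFITM1, IFITM2 and IFITM3 are membrane proteins that block entry of enveloped viruses. They are neighbours on chromosome 11 with near-identical stretches, so reads could be split between them and their values are uncertain. IFITM3 was 2.65-fold lower in SKM-1 (2.38 to 2.96), with 443 normalized counts with knockdown, against 1175, while IFITM2 had 4389, against 2809, and IFITM1 111, against 97.5. In MOLM-14 all 3 were higher, by log2 ratios of 0.48, 0.33 and 0.69 for IFITM1, IFITM2 and IFITM3. XAF1, a pro-apoptotic partner of XIAP, was 10.8-fold lower in SKM-1 (5.78 to 22.2), with 10.1, against 109. In MOLM-14 XAF1 had 4418, against 4354, and in NOMO-1 2481, against 3222. The annotation sets 2535 bases of XAF1 exons opposite the noncoding gene PRAL. EPSTI1, first described in epithelium under stromal contact, was 2.81-fold higher in MOLM-14 (2.01 to 3.98), with 150.3, against 53.5. In NOMO-1 EPSTI1 had 89.4, against 92.6, and in SKM-1 3.67, against 8.13.

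TRIM22, a ubiquitin ligase, was the only member with at least 100 normalized counts that was 2-fold higher in NOMO-1, with 1127, against 543, or 2.07-fold (1.88 to 2.29). In MOLM-14 it had 3559, against 3998, and in SKM-1 975, against 1111. ISG20, an exonuclease, had 91.9, 110.4 and 293 with knockdown, against 82.5, 60.5 and 203. The related growth-restricting proteins SAMD9 and SAMD9L had log2 ratios of 0.20 and 0.84 in MOLM-14, 0.07 and -0.28 in NOMO-1, and 0.55 and 0.72 in SKM-1. DDX60, a helicase that assists RIG-I, had log2 ratios of 0.39, -0.09 and 0.10 in MOLM-14, NOMO-1 and SKM-1. Those of the mono-ADP-ribosyltransferase PARP14 were 0.32, -0.06 and 0.55.

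Several members lie next to each other with no coding gene between them. Of 11 such pairs, 3 shared a direction in all lines, OAS1 with OAS3, IFI44L with IFI44 and HERC6 with HERC5. A further 6 pairs shared it in 2 lines and 2 pairs in 1 line. The sign of IFI44L in NOMO-1 rests on 1 read, against 0. The share among other pairs of genes was not computed, so these counts are not read as a trait of neighbours. Over the 41 members, the log2 ratios of MOLM-14 and NOMO-1 had a Pearson r of 0.42 (Spearman rho 0.38), those of MOLM-14 and SKM-1 an r of 0.01 (rho 0.08) and those of NOMO-1 and SKM-1 an r of 0.24 (rho 0.19). These describe genes of the same libraries, and over all genes tested r was 0.15 between MOLM-14 and NOMO-1, -0.04 between MOLM-14 and SKM-1, and 0.13 between NOMO-1 and SKM-1.

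The lines also differed in their own levels of these genes. Per kilobase of exon in the control libraries, STAT2 (1526 normalized counts per kb), BST2 (1366) and IFITM2 (1349) led in MOLM-14. IFITM2 (3613), BST2 (3541) and STAT2 (983) led in NOMO-1. IFITM2 (2658), BST2 (1365) and HERC5 (1042) led in SKM-1. IFI44L was the lowest in each line, at 5.89 per kb in the MOLM-14 control, 0.692 in that of SKM-1 and 0 in that of NOMO-1, followed by MX1 for MOLM-14, OAS2 for SKM-1 and IFIT1 for NOMO-1. IFITM2 and BST2 were thus among the leading genes of every line, while HERC5 led in SKM-1 alone among the first 3.

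**Figure D4:**
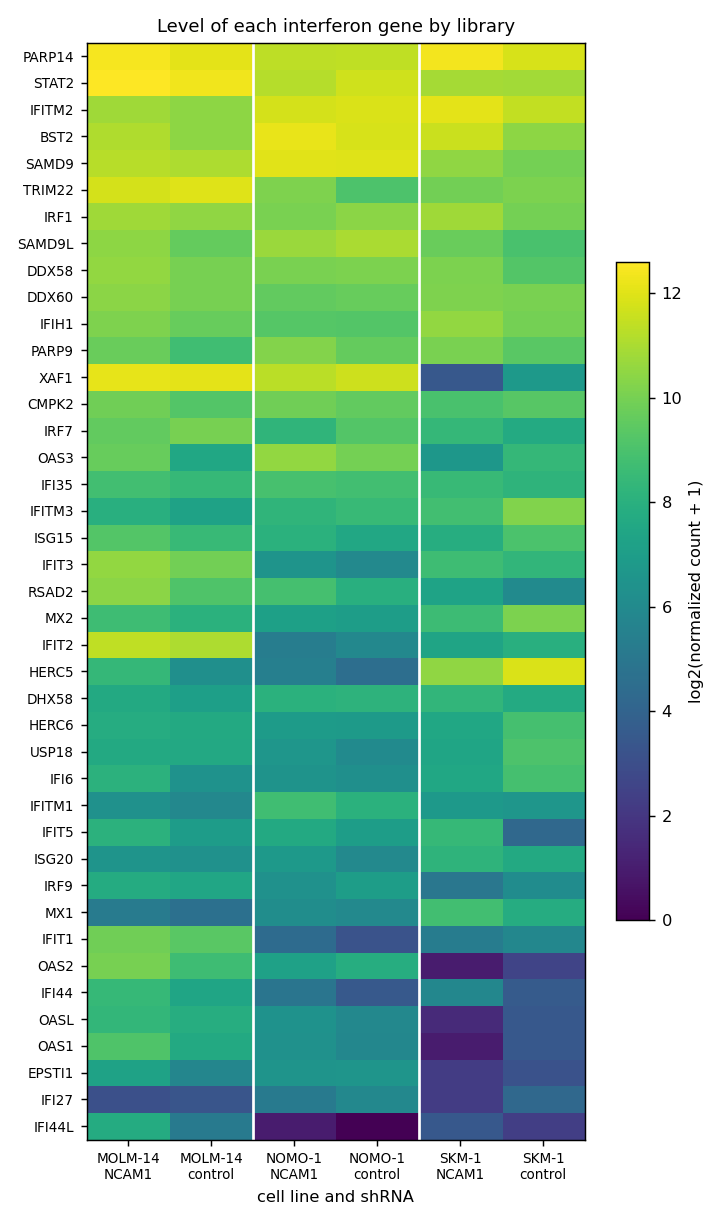
Log2(normalized count + 1) of each of the 41 genes (rows, ordered by mean) in the 6 libraries (columns, with the knockdown library left of the control of the same line). XAF1, OAS1, OAS2 and OASL are low in both SKM-1 libraries, IFIT1, IFIT2 and IFI44L are low in both NOMO-1 libraries, and HERC5 is high in both SKM-1 libraries.

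Differences between lines were called at an adjusted p under 0.05 and at least 2-fold in the same limma fit, where the knockdown and the control library stand for each line. Between SKM-1 and MOLM-14, 16 of 41 members were called (39.0%), where 15.9% of all genes were. Of these 3 were higher in SKM-1 (8.06% of all genes) and 13 lower (7.79% of all genes). HERC5 had 1447 and 3746 normalized counts in the knockdown and control libraries of SKM-1, against 335 and 75.8 in MOLM-14, a log2 difference of 3.86 (limma SE 0.86, adjusted p = 0.0463). MX1 had 436 and 220.5, against 36.5 and 24.5, a log2 difference of 3.33 (limma SE 0.39, adjusted p = 0.0101), and IFITM2 one of 1.14 (limma SE 0.26, adjusted p = 0.0485). The lower side was led by OAS2, XAF1, OAS1 and OASL. OAS2 had 0.918 and 5.08 in SKM-1, against 1019 and 405 in MOLM-14, a log2 difference of -7.56 (limma SE 0.78, adjusted p = 0.00753). XAF1 differed by -6.97 (limma adjusted p = 0.0114), OAS1 by -6.19 (0.0237) and OASL by -5.62 (0.0144). In SKM-1 OAS1, OAS2 and OASL had between 1 and 10 reads, so the size of these differences depends on the pseudocount of 1. The others lower in SKM-1 were IFIT1, EPSTI1, IFI44L, IFIT2, IFI44, RSAD2, TRIM22, IFIT3 and STAT2. Of these, IFI44L had only 10.1 and 4.06 normalized counts in SKM-1. It reached the mean of 10 through MOLM-14 alone, the line in which it was higher.

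Between SKM-1 and NOMO-1, 11 members were called (26.8%), where 13.7% of all genes were, 4 of them higher in SKM-1 (5.93% of all genes) and 7 lower (7.78%). HERC5 was again the highest, with a log2 difference of 6.18 (limma SE 0.86, adjusted p = 0.0152). IFIT3 followed with 2.27 (limma adjusted p = 0.0110), MX1 with 2.23 (0.0277) and IFIT2 with 2.03 (0.0299). XAF1 was lower in SKM-1 by a log2 difference of -6.34 (limma adjusted p = 0.0142), OAS2 by -5.77 (0.0141), EPSTI1 by -3.82 (0.0302) and OASL by -3.66 (0.0430). SAMD9, RSAD2 and IFITM1 were also lower. XAF1, OAS2, OASL, EPSTI1 and RSAD2 were thus lower in SKM-1 than in either other line, and HERC5 and MX1 higher.

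MOLM-14 and NOMO-1 differed in 10 members (24.4%), where 13.3% of all genes were called, 7 of them higher in MOLM-14 (5.26% of all genes) and 3 lower (8.01%). IFIT2 had 2673 and 2109 normalized counts in the knockdown and control libraries of MOLM-14, against 40.1 and 58.6 in NOMO-1, a log2 difference of 5.58 (limma SE 0.37, adjusted p = 0.00385). IFIT1 differed by 5.79 (limma adjusted p = 0.00657) and IFIT3 by 4.03 (0.00404), while IFI44, TRIM22 and RSAD2 were also higher in MOLM-14. IFI44L was called as well (limma adjusted p = 0.00943), but with 1 and 0 reads in NOMO-1 no size is given, and it reached the mean of 10 through MOLM-14 alone, the line in which it was higher. IFITM1 was lower by a log2 difference of -2.26 (limma adjusted p = 0.0207), BST2 by -1.22 (0.0492) and IFITM2 by -1.21 (0.0471). With the third line left out of the fit, the counts became 0 between SKM-1 and MOLM-14, 5 between SKM-1 and NOMO-1 and 19 between MOLM-14 and NOMO-1, and each rests on the spread of all 3 pairs. The shares of all genes called in these refits were not computed. A change in the counts therefore cannot be told apart from one over all genes.

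Upstream of these genes, the ligands were close to undetected. Of 20 type I and III interferon genes looked for, the 5 in the table were IFNA1, IFNB1, IFNE, IFNK and IFNL1, and the other 15 were not analysed here. None reached a mean of 10, and the most abundant, IFNB1, had 4.18 normalized counts in MOLM-14 with knockdown, against 3.35 in its control, or 4 reads, against 3. In SKM-1 IFNB1 had 0.918, against 0, and in NOMO-1 it was at 0 in both libraries, a count that allows up to 3 reads per library. Most type I ligand genes lie together on chromosome 9, and in NOMO-1 their expressed neighbours were near 0 as well. FOCAD had 1883 normalized counts in MOLM-14 with knockdown, against 1630.4, and 2039 in SKM-1, against 2436, but 0.912 in NOMO-1, against 0. KLHL9, which lies inside the cluster, had 1346, against 1454, in MOLM-14 and 3703, against 3489, in SKM-1, but 0, against 2.83, in NOMO-1. MTAP had 4.56 in NOMO-1 with knockdown, against 3.78, while MLLT3 on the other side had 381, against 474. MLLT3 is a partner in the fusion named above, and counts per gene do not tell its own reads apart from those of the fusion. Copy number was not measured in these data.

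**Figure D5:**
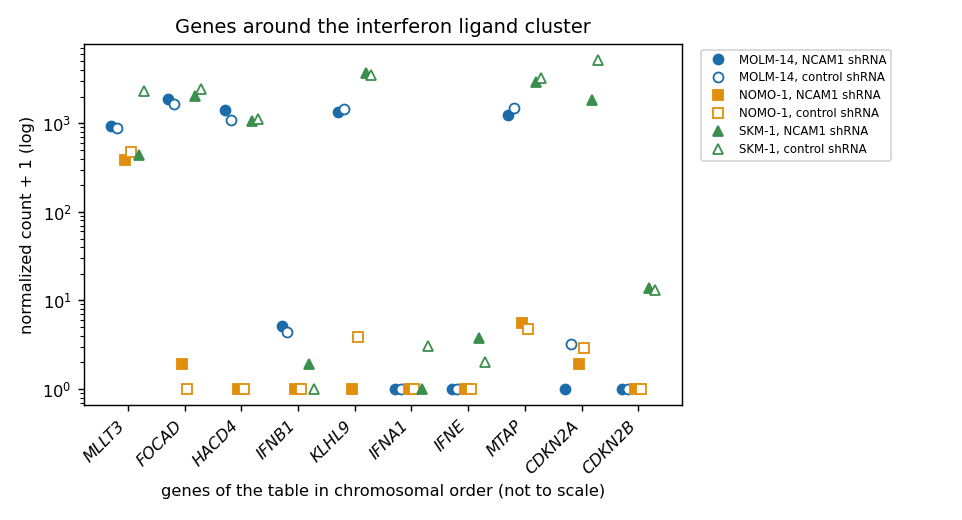
Normalized counts + 1 (log y axis) of the genes around the interferon ligand cluster in chromosomal order (x axis, not to scale); filled symbols are knockdown and open symbols control libraries, with circles for MOLM-14, squares for NOMO-1 and triangles for SKM-1. FOCAD, HACD4, KLHL9 and MTAP lie above 1000 in MOLM-14 and SKM-1 and below 5 normalized counts in NOMO-1.

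The receptor and its kinases were expressed in every library. IFNAR1 had 3352, 3095 and 5257 normalized counts with knockdown in MOLM-14, NOMO-1 and SKM-1, against 3217, 2875 and 4374. IFNAR2 had 1812, 996 and 1315, against 1993, 876 and 1274. Of 10 receptor and JAK-STAT genes tested, 7 were higher and 3 lower in the mean over lines, with a median log2 change of 0.06, and none passed an unadjusted p of 0.05 in either direction.

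Of 16 sensors and adaptors tested, 10 were higher and 6 lower with a median log2 change of 0.07, and 2 passed an unadjusted p of 0.05, both higher, where 1.59% of all genes were higher and 2.89% lower at that limit. IFI16, a DNA sensor, had 2219, 1244 and 2259.5 normalized counts with knockdown in MOLM-14, NOMO-1 and SKM-1, against 1144, 331 and 30.5. The SKM-1 difference was 74.1-fold (51.8 to 110.1), and on the log2 scale the lines averaged 3.01 ± 2.77 (SD, n = 3; limma adjusted p = 0.779). TLR3, the endosomal receptor for double-stranded RNA, had 15.7, 34.7 and 32.1, against 3.35, 7.56 and 0. TLR3 reached the mean of 10 only through the knockdown libraries, the group in which it was higher. TMEM173 (STING), the adaptor of DNA sensing, was lower in each line, with 11386, 4916 and 2862, against 13181, 6775 and 8725. Of 12 further regulators, among them phosphatases and SOCS proteins that damp signalling and the ISG15 enzymes UBA7 and UBE2L6, 8 were higher and 4 lower, with a median log2 change of 0.04. PTPN6, a phosphatase, had 10494, 3822 and 4902, against 16396, 4776 and 7067, and UBE2L6, the ISG15-conjugating enzyme, had 813, 3657 and 2119, against 561, 2973 and 1309.7. PTPN6 was lower and UBE2L6 higher at an unadjusted p under 0.05 in limma, where 2.89% and 1.59% of all genes were, and neither passed the adjusted one.

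Interferon-stimulated genes outside the list of 41 were described in the same way. Of 39 tested, 22 were higher and 17 lower in the mean over lines, where 49.4% of all genes were higher, with a median log2 change of 0.03. In all 3 lines 11 were higher, where 14.6% of all genes were. In MOLM-14 30 of the 39 were higher (48.4% of all genes), with a median log2 ratio of 0.16. In NOMO-1 16 were higher (49.0% of all genes), with a median of -0.17, and in SKM-1 26 (48.0% of all genes), with a median of 0.18. EIF2AK2, the kinase PKR that halts translation on double-stranded RNA, had 4374, 5606 and 8313 normalized counts with knockdown in MOLM-14, NOMO-1 and SKM-1, against 2978, 4469 and 4298. Its mean log2 change was 0.61 ± 0.32 (SD, n = 3; limma adjusted p = 0.779). SP140, a nuclear body protein, had 26.1, 254 and 320.4, against 6.69, 151 and 10.2, and the GTPase GBP1 1.04, 52.0 and 44.1, against 0, 10.4 and 5.08. HELZ2, a helicase-like coactivator, was lower in each line, with 1580.5, 459 and 7.35, against 1923, 956 and 104. EIF2AK2, SP140 and GBP1 were higher at an unadjusted p under 0.05, where 1.59% of all genes were, and limma called 0 of the 39. GBP1 reached the mean of 10 only through knockdown libraries, the group in which it was higher, and its MOLM-14 difference was 1 read, against 0.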

How the data were processed

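RNA of the 6 libraries was sequenced after TruSeq library preparation, per the labels' protocols. The submitters' processing notes name build hg19 and the tools DESeq2 1.12.4, HTSeq 0.6.1p1, STAR and bcl2fastq 1.8.4. The deposited normalized counts, a signal scaled by size factors, were used as the authors made them, and the authors' deposited transformed log2 values served as an alternative. Dividing by what 1 read is worth gave whole reads for 100% of values (tolerance 0.001).

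Genes with a mean of 10 or more were tested on the scale log2(normalized count + 1) with limma 3.58.1 under R 4.3.3 (two-sided, trended eBayes), cell line being a block, and Benjamini-Hochberg adjustment over 19575 genes; this understates changes of low genes. The same fit gave the line contrasts. The block comes from the cell line: deviations of libraries of the same line correlated at 0.850, 0.863 and 0.710, others at -0.319 or below. edgeR 4.0.16 and DESeq2 1.42.0 were alternatives on the recovered reads. Ratios within a line have exact 95% conditional intervals that cover counting error only, and the floor was 3 reads. Exon lengths and overlaps came from GENCODE 29, and 9 members overlap another gene's exons, 7 on the opposite strand. Gene order and promoters came from RefSeq.

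Statistics are given for the 8 members with the smallest p among those with 1 direction in all lines, for members called, for the 4 called members with the greatest fold on each side of a line contrast, and for members at 100 counts and 2-fold in a line. The report names up to 4 genes by p from each pathway list, and a gene of these lists is not reported here; genes under the other observations were chosen after their values were seen. The members and lists were chosen with earlier results of these data known. The scripts were tested on simulated data.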

Additional observations from a re-analysis of the deposited data

Results flagged for a closer look

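OAS3, IFI6 and HERC5 drew attention because the knockdown ratio pointed one way in MOLM-14 and the other way in SKM-1, by more than 2-fold in both, with 100 or more normalized counts. The difference between the lines was not tested, since each line has 1 library per condition. OAS3 had a log2 ratio of 2.16 in MOLM-14 and -1.75 in SKM-1. IFI6 had a log2 ratio of 1.66 in MOLM-14 and -1.37 in SKM-1. HERC5 had a log2 ratio of 2.13 in MOLM-14 and -1.37 in SKM-1. In NOMO-1 the log2 ratios of the same genes were 0.59, 0.19 and 0.89.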

How the results depend on the processing

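The median log2 change of the members, 0.26, kept its sign under every alternative tried, between 0.22 and 0.38. The count of members higher at an unadjusted p under 0.05, 5 as reported, ran between 1 and 11 when 1 line was left out. The count lower at that limit, 0 as reported, ran between 0 and 1. The 1 was IRF7 without SKM-1, where 4.79% of all genes were lower. Without the replicate block for cell line, 0 members were higher at that limit; the block changed no adjusted call. RSAD2 was called by DESeq2 alone, with a log2 change of 1.17. The 10 members that differed between MOLM-14 and NOMO-1 became 6 without a filter on low values, 6 with a filter on a mean of 50, 6 with eBayes without trend and 19 without SKM-1. The 16 between SKM-1 and MOLM-14 became 10 without the filter and 0 without NOMO-1. The 11 between SKM-1 and NOMO-1 became 7 without the filter, 18 with DESeq2 and 5 without MOLM-14. The share of all genes called between lines was computed for the reported setting alone. These changed counts therefore cannot be told apart from a change over all genes. A line left out leaves fewer libraries for the spread, and the other causes were not tested. With 1 library per line and condition, low-count members such as OAS1 and OAS2 in SKM-1 are limited by depth.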

Other observations

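Among interferon-stimulated genes outside the list of 41, some differed by a wide margin between the SKM-1 libraries, and these 3 were chosen after their values were seen. APOBEC3G, a cytidine deaminase that restricts retroviruses, had 400.3 normalized counts in SKM-1 with knockdown, against 9.14 in the control, or 43.8-fold higher (95% interval 22.8 to 96.4). SLFN5, of the Schlafen family, had 379 with knockdown, against 8.13. LGALS3BP, a secreted glycoprotein, had 97.3 with knockdown, against 4252, or 43.7-fold lower. In MOLM-14 the same genes had 270.4, 851 and 64.7 with knockdown, against 197, 554 and 46.8, and were higher by at most 1.54-fold. In NOMO-1 APOBEC3G had 3146 with knockdown, against 3099, SLFN5 664, against 947, and LGALS3BP 60.2, against 49.1.

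Among markers of other blood lineages, CD3D had 2961 normalized counts in NOMO-1 with knockdown, against 3789, and at most 20.9 in the other 4 libraries. MS4A1, which encodes CD20, had 1988 in NOMO-1 with knockdown, against 144, and PAX5 had 1032 in MOLM-14 with knockdown, against 1194. The 8 markers of T and NK cells summed to between 777 and 4177 in knockdown libraries and between 1305 and 5403 in control libraries, and their sum was lower with knockdown in each line. The 5 B cell markers summed to between 119 and 2269 in knockdown libraries and between 555 and 1300.3 in control libraries. The sum of 2269 was that of NOMO-1 with knockdown, against 555 in its control, and was mostly MS4A1. In MOLM-14 and SKM-1 the sums were lower with knockdown, 1147 and 119, against 1300.3 and 565. In the mean over lines 1 of the 5 was higher and 4 lower, where 49.4% of all genes were higher, with a median log2 change of -0.82. The 6 epithelial or stromal markers summed to between 679 and 3578 in knockdown libraries and between 393 and 2627 in control libraries. In each line that sum was higher with knockdown, with 679, 3578 and 1306.5 in MOLM-14, NOMO-1 and SKM-1, against 393, 2627 and 606. The part of these markers of other cell types in the interferon results was not tested.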
